A study of Homo sapiens and Mus musculus with 10 samples.

Results

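Pattern recognition by innate immune cells was examined through 10 genes: the receptors TLR1, TLR2, TLR4, TLR6, TLR7, TLR8 and TLR9, the co-receptors CD14 and LY96, and the adaptor MYD88. They were taken by symbol, ignoring case, from the authors' tables of TPM, transcript levels scaled for length and for the sum of a library. All 10 were listed among 27800 gene symbols in the human table and all 10 among 24493 in the mouse table. RNA was sequenced from MOLM-13, a human acute myeloid leukaemia line, after 4 days in 4 µM WM-1119 (n = 3 libraries) or in DMSO (n = 3). It was also sequenced from ER-Hoxa9, mouse myeloid cells kept as progenitors by an estrogen-controlled Hoxa9 protein, after 4 days in 2 µM WM-1119 (n = 2) or in DMSO (n = 2). ER-Hoxa9 cells of both groups grew with β-estradiol and stem cell factor. WM-1119 is a small molecule inhibitor of the histone acetyltransferase KAT6A, and the comparison asks how transcription differs with the drug. Any effect of the drug through other targets cannot be told apart in this design. The labels do not say that replicates were separate cultures, and the spread behind each p-value may be technical.

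Toll-like receptors sense conserved microbial molecules and are carried by monocytes, macrophages, neutrophils and dendritic cells. TLR2 acts at the cell surface with TLR1 or TLR6 on bacterial lipopeptides, and TLR4 binds bacterial lipopolysaccharide as a complex with LY96, also called MD-2, after transfer of the ligand by CD14. TLR7, TLR8 and TLR9 sit in endosomes and read single-stranded RNA or unmethylated CpG DNA. MYD88 joins all of these receptors to the IRAK kinases and so to NF-kB.

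KAT6A RNA itself stood at 21.2, 20.1 and 13.9 TPM in WM-1119 libraries of MOLM-13, against 22.8, 18.7 and 13.6 TPM in DMSO libraries. Kat6a was at 16.6 and 17.5 TPM in WM-1119 libraries of ER-Hoxa9, against 14.3 and 16.6 TPM in DMSO libraries. The drug blocks the enzyme, so these levels do not test the labels. A level of 1 TPM was reached by 12112 to 12416 genes per library of MOLM-13 and by 11042 to 11446 of ER-Hoxa9. TPM keep no record of read numbers, so depth is unknown. As a check of the labelled cell type, with genes chosen after their values were seen, the myeloid transcription factor SPI1 (PU.1) averaged 290.2 ± 26.1 TPM in WM-1119 and 254 ± 7.78 TPM in DMSO libraries of MOLM-13 (SD, n = 3 each), and Spi1 130.5 ± 25.6 and 87.7 ± 2.96 TPM in ER-Hoxa9 (SD, n = 2 each). The progenitor marker Kit averaged 269 ± 47.6 TPM in WM-1119 and 216 ± 16.04 TPM in DMSO libraries of ER-Hoxa9. In MOLM-13, KIT averaged 0.278 TPM in WM-1119 and 0.281 TPM in DMSO libraries and CD34 was listed at 0. Of the B cell marker list, MS4A1 (CD20) was listed at 0 in every library of both lines, whereas Cd79b was at 42.4 ± 2.24 TPM in WM-1119 and 23.5 ± 6.46 TPM in DMSO libraries of ER-Hoxa9.

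In MOLM-13, the lipopolysaccharide receptor TLR4 was 1.83 times as abundant with WM-1119, and the RNA receptor TLR8, at 1.27 TPM or less in every library, was 3.08 times as abundant. These were the 2 genes of the 10 whose WM-1119 libraries all lay above all DMSO libraries, which held for 4.54% of genes above the filter described next and 4.34% of those below it. MYD88, TLR1, TLR2, TLR6 and CD14 were also higher in each of the 3 same-numbered pairs, as were 28.6% of genes above the filter and 10.4% below it. TLR9 was lower in each pair, as were 14.4% of genes above the filter. None of the 7 genes that could be tested passed. Tests were limma fits of log2(TPM + 1) over the 12436 genes whose mean was 1 TPM or more, called at a Benjamini-Hochberg adjusted p under 0.05. This scale understates the change of low genes.

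TLR4 (GRCh38 chromosome 9, 117704175 to 117724730, plus strand) was at 9.35, 8.89 and 6.77 TPM in WM-1119 libraries, against 5.27, 5.36 and 3.05 TPM in DMSO libraries. All 3 WM-1119 libraries were above the highest DMSO library, and replicate 3 was the lowest of its group on both sides. The log2 difference was 0.77 ± 0.24 (SE), higher in 3 of 3 pairs, with an unadjusted p of 0.0132 and a limma adjusted p of 1.0. With the replicate number as a block, the SE was 0.097 and the adjusted p 0.114. Leaving out any 1 of the 6 libraries moved the difference between 0.55 and 0.89. AL160272.2, a longer GENCODE 29 entry on the same strand that is not a row of the table, shares 3.98% of the 31-base stretches of TLR4.

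The letters before the RefSeq start of TLR4 are shown because PU.1 is known to act at this promoter in human myeloid cells. They are given with those of TLR2 and MYD88, the most abundant receptor and the adaptor. Each run holds 250 bases before and 50 bases from the start that RefSeq gives, copied from RefSeq, 5′ to 3′ on the gene's strand, GRCh38.p14. Capitals mark the PU.1 core GAGGAA on either strand.
TLR4, chr9:117704153-117704452, plus strand: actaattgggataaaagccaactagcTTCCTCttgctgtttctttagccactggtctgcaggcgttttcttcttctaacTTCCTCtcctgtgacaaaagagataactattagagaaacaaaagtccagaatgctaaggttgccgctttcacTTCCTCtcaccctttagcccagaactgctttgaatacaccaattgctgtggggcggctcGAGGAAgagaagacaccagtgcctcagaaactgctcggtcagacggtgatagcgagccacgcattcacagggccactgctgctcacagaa
TLR2, chr4:153684030-153684329, plus strand: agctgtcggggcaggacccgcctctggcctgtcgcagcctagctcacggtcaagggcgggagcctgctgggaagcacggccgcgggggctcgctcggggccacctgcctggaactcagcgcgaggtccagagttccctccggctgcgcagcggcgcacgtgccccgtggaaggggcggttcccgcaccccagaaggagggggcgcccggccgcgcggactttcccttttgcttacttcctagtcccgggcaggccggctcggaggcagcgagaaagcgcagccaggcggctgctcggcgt
MYD88, chr3:38138411-38138710, plus strand: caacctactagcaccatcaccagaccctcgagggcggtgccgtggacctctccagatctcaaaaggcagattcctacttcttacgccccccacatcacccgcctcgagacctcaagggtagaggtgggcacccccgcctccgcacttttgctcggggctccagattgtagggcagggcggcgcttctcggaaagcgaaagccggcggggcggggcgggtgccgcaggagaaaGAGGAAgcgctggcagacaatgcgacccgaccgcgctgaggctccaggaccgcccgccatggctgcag
TLR4 held 4 matches, beginning 224, 171, 99 and 40 bases before the RefSeq start. MYD88 held 1 match, 18 bases before its RefSeq start, and TLR2 held 0. GENCODE 29 begins these genes further upstream, inside the windows, at 117704175 for TLR4, 153684070 for TLR2 and 38138478 for MYD88. All marked matches of TLR4 and MYD88 therefore lie inside the GENCODE genes. Of 35116 RefSeq promoter windows of this length, 27.9% held at least 1 match and 0.0911% held at least 4. Promoters were given for 7 of the 10 human genes, and 5 of these had a match (TLR4, TLR6, TLR9, CD14 and MYD88). The C/EBP core TTNNGCAA was found in TLR8 alone of the 7, against 10.5% of all windows. The RUNX core TGTGGT was found in 0 of the 7, against 13.1% of all windows. Both strands were searched, and none of the 7 windows held more than 1 kind of core. A match is a run of letters and not a bound site.

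**Figure D1:**
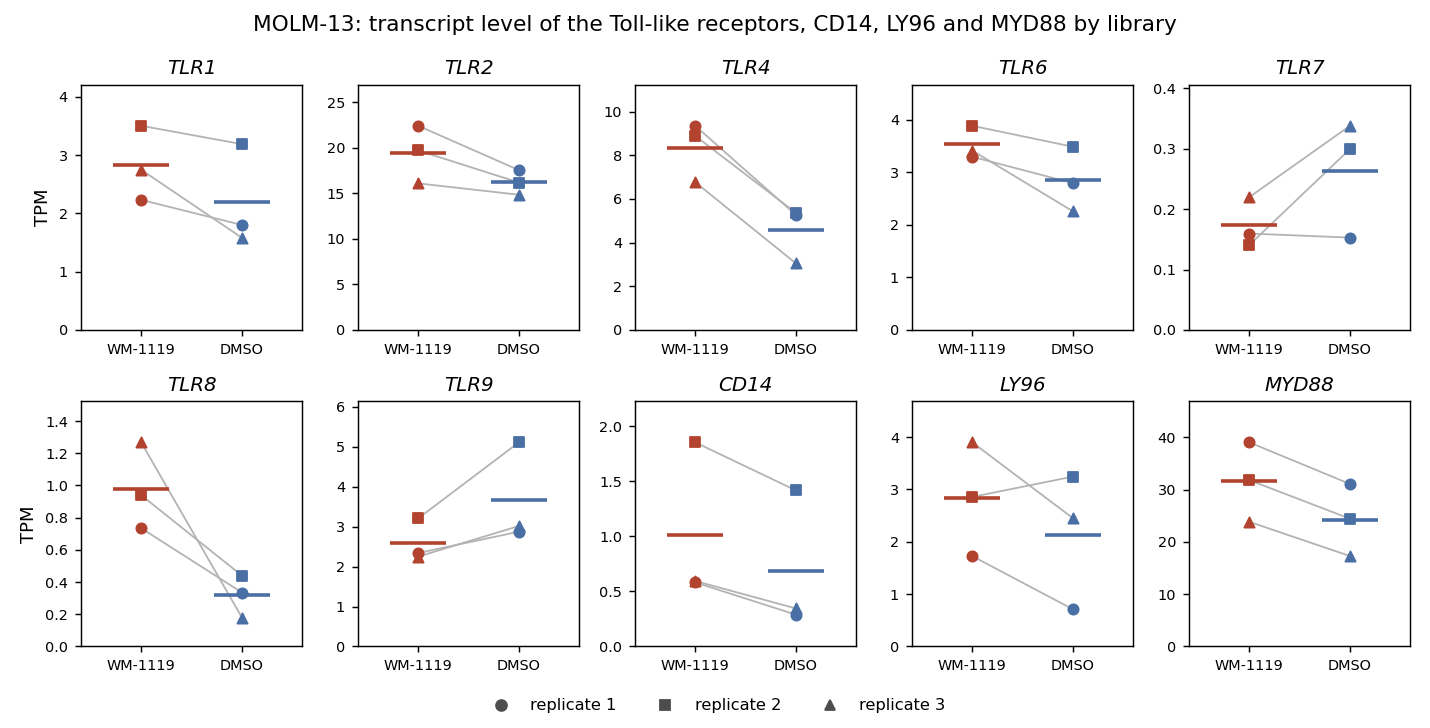
TPM (linear axes from 0, one scale per gene) of the 10 genes in the MOLM-13 libraries, WM-1119 left and DMSO right. Symbols mark the replicate number, grey lines join libraries of the same number and bars are group means. TLR4 and TLR8 show no overlap between groups, and TLR9 is lower with WM-1119 in each of the 3 pairs.

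The partners of TLR4 in lipopolysaccharide binding were less abundant and more uneven. LY96 (GRCh38 chromosome 8, 73991352 to 74029087, plus strand), the secreted protein that forms the ligand pocket with TLR4, was at 1.73, 2.86 and 3.90 TPM in WM-1119 libraries, against 0.709, 3.25 and 2.45 TPM in DMSO libraries. Replicates 1 and 3 were higher with WM-1119 and replicate 2 was lower, so the groups overlapped over most of their range. Its log2 difference of 0.35 ± 0.39 (SE; limma adjusted p = 1.0) turned to -0.040 without DMSO replicate 1, the lowest library. It was 0.62 without DMSO replicate 2, 0.57 without WM-1119 replicate 1 and 0.15 without WM-1119 replicate 3. CD14, a membrane-anchored co-receptor and the classical monocyte antigen, was at 0.582, 1.85 and 0.595 TPM in WM-1119 libraries, against 0.288, 1.42 and 0.345 TPM in DMSO libraries. Replicate 2 was the high one in both groups, and each WM-1119 library was above its same-numbered DMSO library. With a mean of 0.846 TPM over all 6 libraries, CD14 fell below the filter and was not tested.

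In each library of MOLM-13 the number of TLR4 transcripts per LY96 transcript was 5.41, 3.11 and 1.74 with WM-1119, against 7.43, 1.65 and 1.24 with DMSO. Both groups spanned several-fold, and the values overlapped. MYD88 transcripts per TLR4 transcript were 4.17, 3.58 and 3.52 with WM-1119, against 5.90, 4.56 and 5.67 with DMSO. TLR2 transcripts per TLR4 transcript were 2.40, 2.22 and 2.38 with WM-1119, against 3.33, 3.02 and 4.87 with DMSO. The last 2 ratios were lower in every WM-1119 library than in any DMSO library, as was the level per TLR4 of 66.0% of the 12435 other genes tested, so a low ratio to TLR4 is not particular to MYD88 or TLR2. These ratios do not depend on how a library is scaled.

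TLR2 (GRCh38 chromosome 4, 153684070 to 153705702, plus strand), the lipopeptide receptor, was the most abundant receptor, at 22.4, 19.7 and 16.1 TPM in WM-1119 libraries, against 17.6, 16.2 and 14.9 TPM in DMSO libraries. WM-1119 replicate 3 lay within the DMSO range, and the other two lay above it. The log2 difference was 0.24 ± 0.18 (SE; limma adjusted p = 1.0, and 0.238 with the replicate block). It was 0.13 without WM-1119 replicate 1 and 0.36 without WM-1119 replicate 3. With median-of-ratios scaling TLR2 was higher in 2 of the 3 pairs instead of all.

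The TLR2 partners lie next to each other on chromosome 4, minus strand, where GENCODE 29 gives TLR1 from 38790677 to 38856817 and TLR6 from 38823715 to 38856817, so that they overlap. They share 418 stretches of 31 bases, 9.06% of those of TLR1 and 6.9% of those of TLR6, so reads from that part could be assigned to either. TLR1 was at 2.23, 3.51 and 2.75 TPM in WM-1119 libraries, against 1.80, 3.19 and 1.58 TPM in DMSO libraries. TLR6 was at 3.30, 3.89 and 3.42 TPM in WM-1119 libraries, against 2.80, 3.49 and 2.26 TPM in DMSO libraries. Replicate 2 was the highest of its group for both genes, and the groups overlapped through DMSO replicate 2. Log2 differences were 0.28 ± 0.26 (SE) for TLR1 and 0.25 ± 0.19 (SE) for TLR6, with a limma adjusted p of 1.0 for both, and of 0.367 and 0.354 with the replicate block. The difference of TLR1 was 0.15 without DMSO replicate 3, 0.16 without WM-1119 replicate 2 and 0.497 without DMSO replicate 2. That of TLR6 was 0.13 without DMSO replicate 3.

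Of the endosomal receptors, TLR9 (chromosome 3, 52221080 to 52226163, minus strand), the receptor for CpG DNA, was at 2.34, 3.21 and 2.25 TPM in WM-1119 libraries, against 2.88, 5.11 and 3.02 TPM in DMSO libraries. It was lower in 3 of 3 pairs, and the groups overlapped because WM-1119 replicate 2 was above DMSO replicates 1 and 3. The log2 difference was -0.35 ± 0.24 (SE; limma adjusted p = 1.0, and 0.252 with the replicate block). It was -0.14 without DMSO replicate 2, the highest library. The gene AC097637.1, a longer entry on the same strand in GENCODE 29, shares 85.5% of the 31-base stretches of TLR9, and it is not a row of the table.

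TLR8 (chromosome X, 12906620 to 12923169, plus strand), a receptor for single-stranded RNA, was at 0.735, 0.940 and 1.27 TPM in WM-1119 libraries, against 0.335, 0.440 and 0.180 TPM in DMSO libraries. All 3 WM-1119 libraries exceeded all DMSO libraries, which also held for 4.34% of the 9741 genes below the filter and above 0 TPM. TLR8 had a mean of 0.6495 TPM and was not tested in the filtered fit. Without a filter its log2 difference was 0.58 ± 0.13 (SE), with an unadjusted p of 0.00474 and a limma adjusted p of 0.876. TLR8-AS1, annotated on the opposite strand from 12902817 to 12908333, was at 0.285, 0.479 and 0.862 TPM in WM-1119 libraries, against 0.157, 0.197 and 0.238 TPM in DMSO libraries. It too was higher in each WM-1119 library, and whether the counting used strand is not given in the sources used here, so reads of the overlapping part cannot be told apart. TLR7, the neighbouring RNA receptor, was at 0.160, 0.141 and 0.2198 TPM in WM-1119 libraries, against 0.153, 0.2995 and 0.338 TPM in DMSO libraries. It was the least abundant of the 10 in both groups, and its groups overlapped.

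MYD88 (chromosome 3, 38138478 to 38143022, plus strand), the shared adaptor, was the most abundant of the 10, at 39.1, 31.8 and 23.9 TPM in WM-1119 libraries, against 31.1, 24.4 and 17.3 TPM in DMSO libraries. Replicate 1 was the highest and replicate 3 the lowest library of both groups. Each WM-1119 library was above its same-numbered partner, while the groups overlapped. The log2 difference was 0.38 ± 0.27 (SE; limma adjusted p = 1.0). With the replicate block the SE was 0.066 and the adjusted p 0.146. The difference was 0.16 without DMSO replicate 3, 0.21 without WM-1119 replicate 1 and 0.57 without DMSO replicate 1.

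Across the 7 tested genes of MOLM-13, 0 were called with limma, without or with the replicate block, where 0 genes of all tested were called higher (0.0%) and 1 or 0 lower (0.00804% or 0.0%). At an unadjusted p under 0.05 the count was 1 of 7 (TLR4) without the block, against 3.05% of all genes. With the block it was 4 of 7 (TLR4, MYD88, TLR2 and TLR9), against 18.1% of all genes. Median-of-ratios scaling added to the block took TLR2 out of this count and kept TLR4, MYD88 and TLR9. Over all tested genes the block count split into 1645 higher and 611 lower. With that scaling it split into 1092 higher and 1150 lower, so its lean towards higher genes was lost. Of the 7, 5 were higher in all 3 pairs, against 28.6% of all tested genes, and 1 was lower in all 3, against 14.4%. All WM-1119 libraries were above all DMSO libraries for 1 of the 7, against 4.54%. The median log2 difference of the 7 was 0.28, beside 0.05 over all tested genes. The 3 genes below the filter (CD14, TLR7 and TLR8) are in none of these counts.

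The order of levels in MOLM-13 DMSO libraries was MYD88, TLR2, TLR4, TLR9, TLR6, TLR1, LY96, CD14, TLR8 and TLR7. Of the neighbours in this order, only TLR2 and TLR4 did not overlap in their library values. In WM-1119 libraries TLR9 came after LY96 and the rest kept their places. The neighbours that overlapped in that group were TLR6 and TLR1, TLR1 and LY96, LY96 and TLR9, and CD14 and TLR8. There MYD88 and TLR2, TLR2 and TLR4, TLR4 and TLR6, TLR9 and CD14, and TLR8 and TLR7 were apart. The surface receptors TLR1, TLR2, TLR4 and TLR6 summed to 37.3, 36.01 and 29.04 TPM with WM-1119, against 27.4, 28.2 and 21.7 TPM with DMSO. Every WM-1119 sum was above every DMSO sum. TLR2 made up most of each sum, and taken singly TLR4 alone of these receptors was apart between groups. How often sums over other genes are apart was not computed. The endosomal receptors TLR7, TLR8 and TLR9 summed to 3.23, 4.29 and 3.74 TPM with WM-1119, against 3.36, 5.85 and 3.54 TPM with DMSO. These ranges overlapped in part, with WM-1119 replicate 1 the lowest sum and DMSO replicate 2 the highest. Over the 6 libraries, the genes whose centred log2 levels lay nearest to those of TLR4 were DRAM1, a lysosomal membrane protein, EPHB6, an ephrin receptor without kinase activity, and CD84, a leukocyte surface receptor. Their root mean square differences from TLR4 were 0.0713, 0.0910 and 0.0921 on the log2 scale, and MYD88 ranked 223 of 12435. Nearest to MYD88 were ST14, a membrane serine protease, NNT, a mitochondrial transhydrogenase, and RIPK1, a kinase of death receptor and TLR3 or TLR4 signalling, at 0.0327, 0.0337 and 0.0344. All of these share the same 6 libraries, and near genes are bound to occur among so many.

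In ER-Hoxa9, the lipopolysaccharide recognition genes were higher with WM-1119, with Cd14 3.02 times, Tlr4 2.10 times and Ly96 1.52 times the DMSO mean. Tlr2 was 2.32 times and Tlr6 1.86 times the DMSO mean. WM-1119 and DMSO libraries did not overlap for 8 of the 10 genes, and all 8 were higher with WM-1119. With 2 libraries a group such separation was common: it held in that direction for 40.3% of the 11362 genes tested and for 22.3% of 5926 genes below the filter. None of the 6 genes tested was called (limma, lowest adjusted p = 0.312), where 0.0176% of all genes were called higher and 0.0176% lower.

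Cd14 was at 5.63 and 3.58 TPM in WM-1119 libraries, against 1.10 and 1.94 TPM in DMSO libraries. The libraries were apart, and replicate 1 was the higher of the WM-1119 libraries and the lower of the DMSO libraries. The log2 difference was 1.15 ± 0.28 (SE), with an unadjusted p of 0.00953 and a limma adjusted p of 0.312. Leaving out any 1 of the 4 libraries moved it between 0.88 and 1.41.

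Tlr4 was at 8.69 and 6.16 TPM in WM-1119 libraries, against 2.24 and 4.84 TPM in DMSO libraries. Both WM-1119 libraries were above both DMSO libraries, by a wide margin in replicate 1 and a small one in replicate 2. The log2 difference was 0.94 ± 0.33 (SE; limma adjusted p = 0.373), and it moved between 0.51, without DMSO replicate 1, and 1.36, without DMSO replicate 2. Ly96 was at 4.18 and 4.99 TPM in WM-1119 libraries, against 2.60 and 3.44 TPM in DMSO libraries. Here replicate 2 was the higher one in both groups, and the groups did not overlap (log2 difference 0.48 ± 0.20, SE; limma adjusted p = 0.398).

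**Figure D2:**
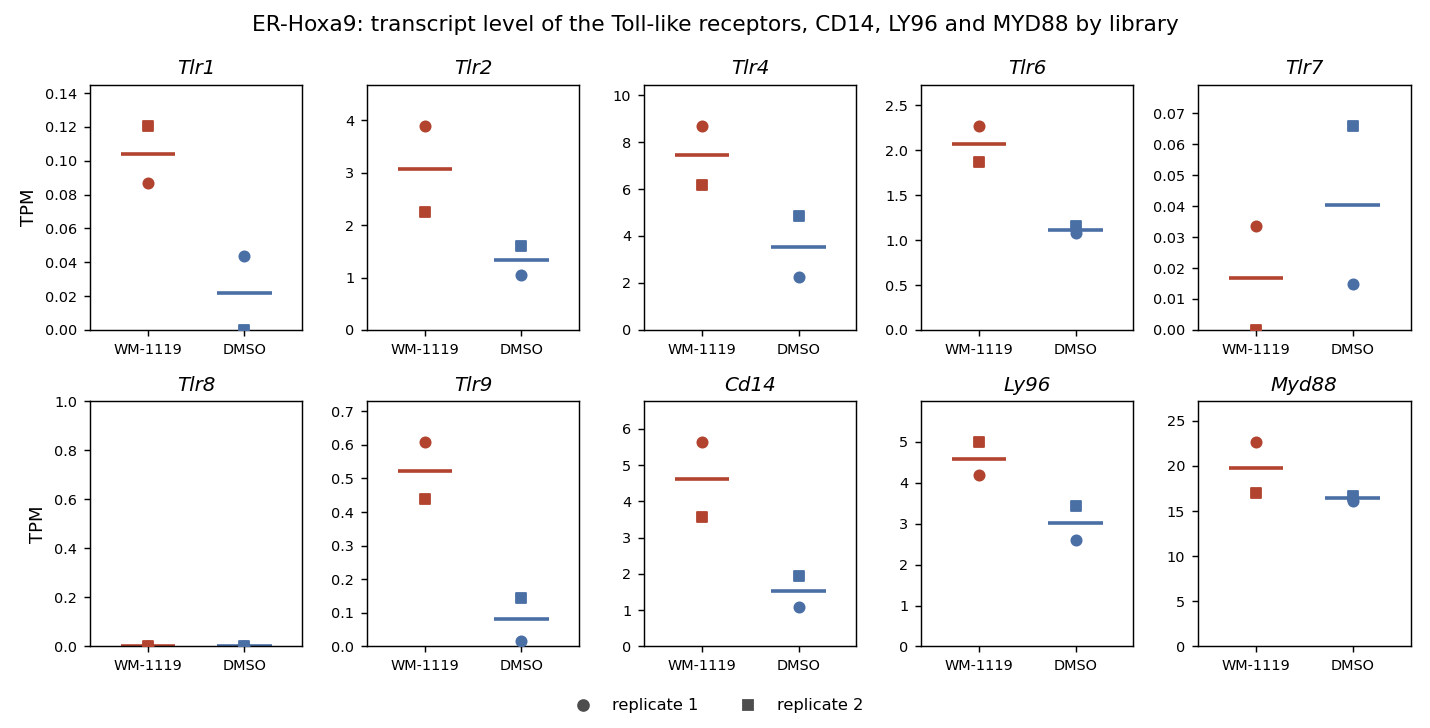
TPM (linear axes from 0, one scale per gene) of the 10 genes in the ER-Hoxa9 libraries, WM-1119 left and DMSO right. Symbols mark the replicate number and bars are group means. Groups are apart for all genes but Tlr7 and Tlr8, and Tlr8 is listed at 0 in all 4 libraries.

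Tlr2 was at 3.90 and 2.26 TPM in WM-1119 libraries, against 1.05 and 1.60 TPM in DMSO libraries. The groups were apart, replicate 1 by more than replicate 2 (log2 difference 0.79 ± 0.28, SE; limma adjusted p = 0.373). The difference was 0.496 without WM-1119 replicate 1. Tlr6 was at 2.27 and 1.87 TPM in WM-1119 libraries, against 1.08 and 1.15 TPM in DMSO libraries, and its DMSO libraries were close together (log2 difference 0.54 ± 0.21, SE; limma adjusted p = 0.392). Tlr1, the other partner of Tlr2, was at 0.0871 and 0.121 TPM in WM-1119 libraries, against 0.0434 TPM and a listed 0 in DMSO libraries, below the filter. Tlr4 was the most abundant receptor of ER-Hoxa9 in both groups, where in MOLM-13 it was TLR2. The tables of the lines were normalized separately and come from different species, so levels are compared only by their order within a line.

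Myd88 was at 22.6 and 17.02 TPM in WM-1119 libraries, against 16.1 and 16.7 TPM in DMSO libraries. WM-1119 replicate 2 was barely above DMSO replicate 2, and the log2 difference was 0.25 ± 0.17 (SE; limma adjusted p = 0.552). It was 0.051 without WM-1119 replicate 1 and 0.44 without WM-1119 replicate 2. Myd88 transcripts per Tlr4 transcript were 2.60 and 2.76 with WM-1119, against 7.21 and 3.45 with DMSO. Both WM-1119 values were below both DMSO values, as for 81.5% of the other 11361 genes tested. Tlr2 transcripts per Tlr4 transcript were 0.448 and 0.367 with WM-1119, against 0.471 and 0.331 with DMSO, and overlapped.

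Tlr9 was at 0.608 and 0.438 TPM in WM-1119 libraries, against 0.0163 and 0.145 TPM in DMSO libraries, so that every library was under 1 TPM and the gene was not tested in the filtered fit. Both WM-1119 libraries were above both DMSO libraries, as for 22.3% of genes below the filter. Without a filter its log2 difference was 0.495 ± 0.098 (SE; limma adjusted p = 0.394). Tlr7 was at 0.0335 TPM and a listed 0 in WM-1119 libraries, against 0.0148 and 0.066 TPM in DMSO libraries. Tlr8 was listed at 0 in all 4 libraries. In order of DMSO level the genes were Myd88, Tlr4, Ly96, Cd14, Tlr2, Tlr6, Tlr9, Tlr7, Tlr1 and Tlr8. Myd88 and Tlr4, Ly96 and Cd14, and Tlr6 and Tlr9 were the neighbours that did not overlap. In WM-1119 libraries Cd14 came before Ly96, and Tlr1 before Tlr7.

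Of the 6 tested genes of ER-Hoxa9, 3 had an unadjusted p under 0.05 (Cd14, Tlr2 and Tlr4), against 12.8% of all genes. All 6 had a positive log2 difference, as did 71.9% of all genes tested. Their median was 0.66, beside 0.12 over all genes. Median-of-ratios scaling moved that median over all genes to -0.01. On that scale the differences were 1.05 for Cd14, 0.82 for Tlr4, 0.69 for Tlr2, 0.45 for Tlr6, 0.36 for Ly96 and 0.11 for Myd88. The count at an unadjusted p under 0.05 was then 1 (Cd14), with limma p-values of 0.0519 for Tlr2 and 0.0531 for Tlr4. Of the 11353 genes tested on that scale, 696 were higher and 453 lower at the same limit. The groups then overlapped for Myd88 and stayed apart for the other 7. How often all genes are apart on that scale is not given here, so this count has no share to stand beside. The 4 genes below the filter (Tlr1, Tlr7, Tlr8 and Tlr9) are in none of these counts of tested genes.

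**Figure D3:**
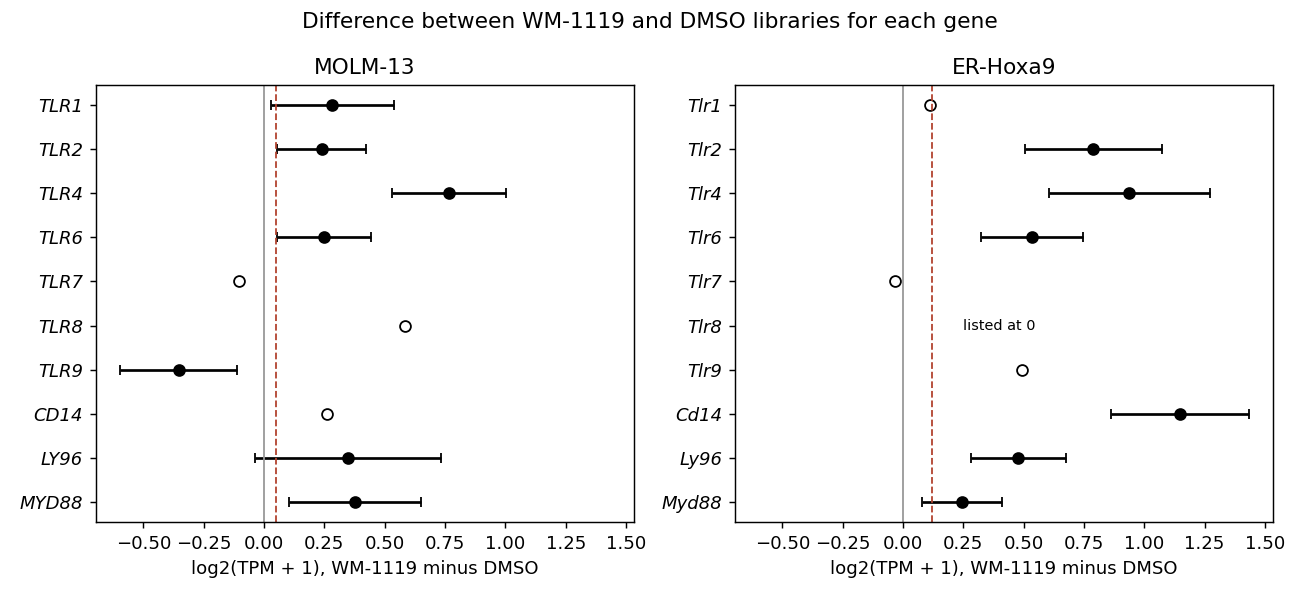
Log2(TPM + 1) difference, WM-1119 minus DMSO, for each of the 10 genes in MOLM-13 (left) and ER-Hoxa9 (right). Filled points carry the limma SE without the replicate block, and open points are genes below the filter on low values. The dashed line is the median of all tested genes (0.05 and 0.12). TLR4 lies furthest to the right in MOLM-13, at 0.77, and Cd14 in ER-Hoxa9, at 1.15.

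Other genes of the pathway were followed through 6 lists, of which 65 symbols were in the MOLM-13 table and 66 in the ER-Hoxa9 table. Of these, 51 and 52 were tested, and 0 were called in either direction in either line (limma). Positive log2 differences were found for 45 of 51 in MOLM-13, where 61.5% of all genes were positive, and for 43 of 52 in ER-Hoxa9, against 71.9%. In MOLM-13, 28 of the 51 were higher in all 3 pairs and 3 were lower in all 3, against 28.6% and 14.4% of all genes.

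The remaining Toll-like receptors were near 0. In MOLM-13 the most abundant of TLR3, TLR5 and TLR10 was TLR5, the flagellin receptor, at 0.161 ± 0.0612 TPM in WM-1119 and 0.203 ± 0.0516 TPM in DMSO libraries (SD, n = 3 each). In ER-Hoxa9 it was Tlr12, a mouse receptor for the parasite protein profilin, at 0.686 ± 0.3965 TPM in WM-1119 and 0.318 ± 0.373 TPM in DMSO libraries (SD, n = 2 each), with Tlr11 listed at 0. None of them passed the filter.

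Chaperones and accessory proteins of the receptors had the highest list median in both lines, 0.29 over 11 tested genes in MOLM-13 and 0.31 over 10 in ER-Hoxa9. Their most abundant members were HMGB1, a nuclear protein that also acts as a danger signal, at 327 ± 63.5 TPM in WM-1119 and 272 ± 80.9 TPM in DMSO libraries of MOLM-13, and Hsp90b1, the endoplasmic reticulum chaperone gp96, at 453 ± 64.0 TPM in WM-1119 and 418 ± 33.9 TPM in DMSO libraries of ER-Hoxa9. The following examples were chosen after their values were seen. CNPY3, which assists gp96 in folding Toll-like receptors, was at 170.3 ± 14.0 TPM in WM-1119 and 123 ± 9.79 TPM in DMSO libraries of MOLM-13, apart between groups (log2 difference 0.47 ± 0.17, SE; limma adjusted p = 1.0). Cnpy3 was at 70.6 ± 9.26 and 55.8 ± 3.99 TPM in ER-Hoxa9 (log2 difference 0.33 ± 0.14, SE; limma adjusted p = 0.402). UNC93B1, which carries the endosomal receptors out of the endoplasmic reticulum, was at 92.6 ± 16.7 TPM in WM-1119 and 75.0 ± 20.4 TPM in DMSO libraries of MOLM-13. Unc93b1 was at 123 ± 20.8 and 84.8 ± 3.15 TPM in ER-Hoxa9, apart between groups. Lbp, the lipopolysaccharide-binding protein that delivers the ligand to CD14, was at 16.6 ± 3.81 TPM in WM-1119 and 4.86 ± 2.66 TPM in DMSO libraries of ER-Hoxa9, a log2 difference of 1.65 ± 0.35 (SE; limma adjusted p = 0.305). LBP averaged 0.0946 TPM in WM-1119 and 0.0642 TPM in DMSO libraries of MOLM-13 and was not tested. CD180, a receptor related to TLR4, was at 38.1 ± 4.93 TPM in WM-1119 and 29.6 ± 5.32 TPM in DMSO libraries of MOLM-13, and Cd180 at 18.1 ± 5.83 and 10.1 ± 6.13 TPM in ER-Hoxa9.

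Adaptors and kinases had a median of 0.11 over 21 tested genes in MOLM-13 and 0.16 over 22 in ER-Hoxa9, with 20 and 19 of them positive. The most abundant was UBE2V1, a ubiquitin-conjugating enzyme variant that works with TRAF6, at 87.7 ± 9.60 TPM in WM-1119 and 86.1 ± 12.02 TPM in DMSO libraries of MOLM-13. Ube2v1 was at 112 ± 8.62 and 93.7 ± 1.295 TPM in ER-Hoxa9. Among transcription factors, all 6 were positive in MOLM-13 (median 0.13) and 5 of 6 in ER-Hoxa9 (median 0.24). IRF8, a myeloid interferon regulatory factor and the most abundant in MOLM-13, was at 183 ± 42.5 TPM in WM-1119 and 177 ± 79.4 TPM in DMSO libraries. Nfkb1, the most abundant in ER-Hoxa9, was at 58.8 ± 8.04 and 57.8 ± 3.29 TPM. IRF5, which acts below MYD88 and was chosen after its values were seen, was at 33.1 ± 8.29 TPM in WM-1119 and 22.5 ± 8.01 TPM in DMSO libraries of MOLM-13 and higher in 3 of 3 pairs. Irf5 was at 15.7 ± 0.921 and 9.76 ± 0.281 TPM in ER-Hoxa9, with a log2 difference of 0.63 ± 0.12 (SE; limma adjusted p = 0.3004).

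Inhibitors of the pathway had a median of 0.09 over 12 tested genes in MOLM-13, with 9 positive, and of 0.21 over 11 in ER-Hoxa9, also with 9 positive. TNIP1, a binding partner of the deubiquitinase A20 and the most abundant in MOLM-13, was at 66.8 ± 12.95 TPM in WM-1119 and 62.4 ± 24.1 TPM in DMSO libraries. Sigirr, a decoy-like receptor of the interleukin 1 receptor family and the most abundant in ER-Hoxa9, was at 142 ± 11.7 TPM in WM-1119 and 156 ± 7.24 TPM in DMSO libraries. TNFAIP3 (A20) and SOCS1, singled out after their values were seen as the lowest differences of the list in MOLM-13, were at 14.96 ± 3.63 and 13.2 ± 10.2 TPM in WM-1119 libraries, against 22.95 ± 13.2 and 17.4 ± 4.89 TPM in DMSO libraries. Of receptors for interleukin 1 family cytokines, which also signal through MYD88, the most abundant were IL1RAP in MOLM-13, at 18.1 ± 2.77 TPM in WM-1119 and 16.8 ± 3.001 TPM in DMSO libraries, and Il18rap in ER-Hoxa9, at 13.2 ± 2.46 and 15.4 ± 3.58 TPM.

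**Figure D4:**
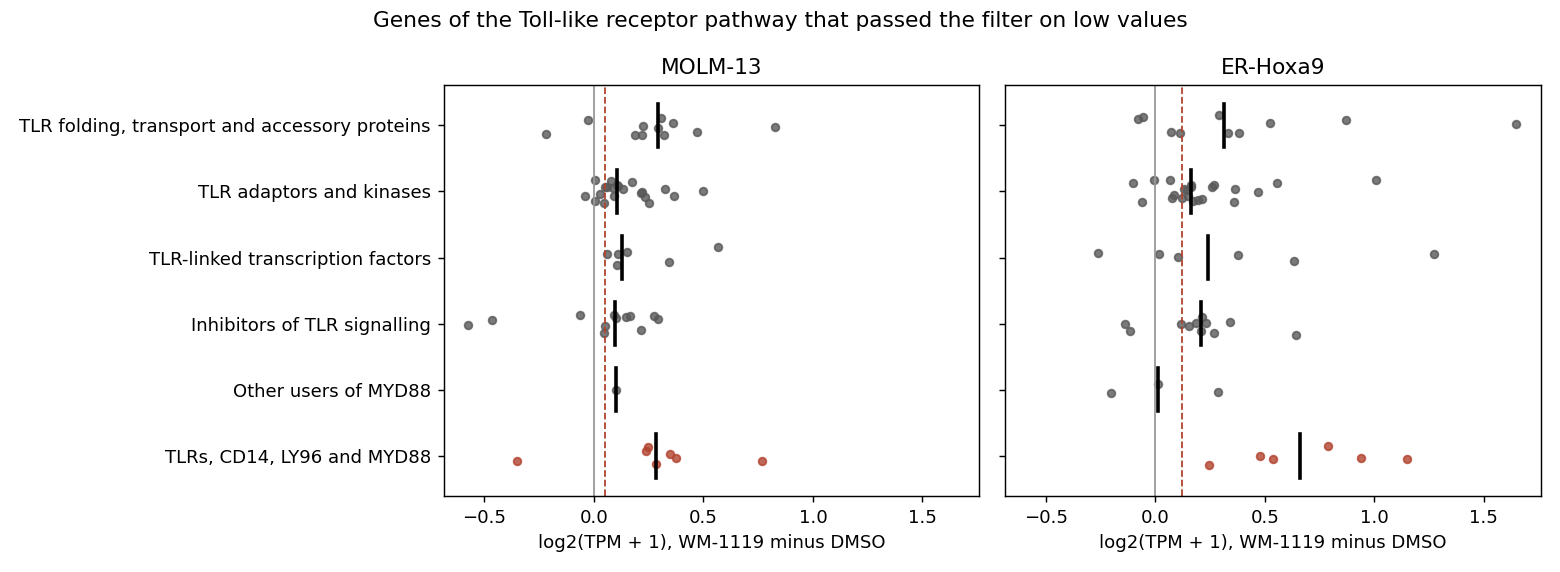
Log2(TPM + 1) difference, WM-1119 minus DMSO, of each gene above the filter, by list, in MOLM-13 (left) and ER-Hoxa9 (right). Black bars are list medians, red points are the Toll-like receptors, CD14, LY96 and MYD88, and the dashed line is the median of all tested genes. Medians of the red points are 0.28 and 0.66, and one red point, TLR9 in MOLM-13, lies below 0.

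Markers of myeloid and other cell types stood beside these values as follows. Of all genes tested, 61.5% had a positive log2 difference in MOLM-13 and 71.9% in ER-Hoxa9. In MOLM-13, 8 of 9 tested monocyte and macrophage markers had positive log2 differences (median 0.39), and the 15 listed symbols summed to between 2351 and 3556 TPM in WM-1119 libraries, against between 821 and 2192 TPM in DMSO libraries. Most of that sum was LYZ, lysozyme, at 2759 ± 612 TPM in WM-1119 and 1347 ± 689 TPM in DMSO libraries. All 4 tested neutrophil markers were positive (median 0.71), and the 11 listed symbols summed to between 164.5 and 215 TPM in WM-1119 libraries, against between 97.6 and 142 TPM in DMSO libraries, with LCN2 listed at 0. Most of that sum was CSF3R, also on the myeloid identity list, at 127.5 ± 5.74 TPM in WM-1119 and 95.85 ± 12.91 TPM in DMSO libraries. Of the 11 symbols, 5 were under 1 TPM in every library. In ER-Hoxa9, 4 of 6 tested monocyte and macrophage markers were positive, and the 14 listed symbols summed to between 119.8 and 128 TPM in WM-1119 libraries, against between 102 and 131 TPM in DMSO libraries, with Lyz2 listed at 0. The most abundant of them, the monocyte chemokine receptor Ccr2, was at 79.9 ± 2.46 TPM in WM-1119 and 86.9 ± 21.3 TPM in DMSO libraries. The neutrophil list summed to between 116 and 292 TPM in WM-1119 libraries, against between 154.5 and 232 TPM in DMSO libraries, with Fpr1 listed at 0. Most of that sum was Lcn2, at 176.1 ± 119.7 TPM in WM-1119 and 176.8 ± 55.56 TPM in DMSO libraries. Dendritic cell markers summed to between 201.5 and 215 TPM in WM-1119 libraries of MOLM-13, against between 216.5 and 291 TPM in DMSO libraries, with all 4 tested negative. Most of that sum was FLT3, also on the myeloid identity list, at 142.5 ± 13.97 TPM in WM-1119 and 164.4 ± 15.15 TPM in DMSO libraries. Of the 9 listed symbols, 5 were under 1 TPM in every library. In ER-Hoxa9 the dendritic cell markers summed to between 247 and 265 TPM in WM-1119 libraries, against between 163 and 181 TPM in DMSO libraries, with all 3 tested positive. Most of it was Flt3, at 231.2 ± 17.03 TPM in WM-1119 and 153.2 ± 10.53 TPM in DMSO libraries. Here 5 of the 8 listed symbols were under 1 TPM in every library. The myeloid identity list of ER-Hoxa9, 10 of 11 tested positive, summed to between 4201 and 4289 TPM in WM-1119 libraries, against between 2059 and 3542 TPM in DMSO libraries. Its erythroid and megakaryocyte markers, 5 of 6 tested positive (median 0.70), summed to between 55.3 and 63.04 TPM in WM-1119 libraries, against between 25.0 and 45.8 TPM in DMSO libraries. The most abundant, the platelet glycoprotein Gp9, was at 27.3 ± 1.79 TPM in WM-1119 and 8.597 ± 4.14 TPM in DMSO libraries. B cell markers summed to between 82.3 and 87.4 TPM in WM-1119 libraries of ER-Hoxa9, against between 48.3 and 65.6 TPM in DMSO libraries. T and NK cell markers there summed to between 21.1 and 21.9 TPM in WM-1119 libraries, against between 18.7 and 18.8 TPM in DMSO libraries. Most of that sum was Ncam1, at 15.39 ± 0.634 TPM in WM-1119 and 11.2 ± 0.531 TPM in DMSO libraries, with Cd3e, Cd3g and Ncr1 listed at 0. In MOLM-13 the sums of the myeloid identity, B cell, T and NK cell, and erythroid and megakaryocyte lists overlapped between groups. HBB, a globin gene and the most abundant of the erythroid and megakaryocyte list, set replicate 3 apart in both groups. It was at 49.45 TPM in WM-1119 replicate 3 and 52.07 TPM in DMSO replicate 3, and at 0.14 TPM or less in the other libraries. The cause was not tested. Stromal and endothelial markers there, mostly PECAM1, summed to between 43.4 and 55.3 TPM in WM-1119 libraries, against between 23.7 and 41.1 TPM in DMSO libraries. In ER-Hoxa9 the stromal and endothelial sums overlapped. The part of these markers in the receptor levels was not tested, and in bulk RNA a different number of cells of a type and a different amount of RNA per cell cannot be told apart. The share of TPM in ribosomal protein genes was 25.8%, 24.1% and 31.9% in WM-1119 libraries of MOLM-13, against 25.3%, 26.8% and 37.6% in DMSO libraries. Replicate 3, which had the largest ribosomal share, also had the lowest TLR2, TLR4 and MYD88 in its group, and the part of that share was not tested. In ER-Hoxa9 the ribosomal share was 26.3% and 25.1% in WM-1119 libraries, against 30.7% and 26.98% in DMSO libraries. Both WM-1119 libraries were below both DMSO libraries, and the part of this in the receptor differences was not tested.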

How the data were processed

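For each line the authors deposited a table of TPM by gene symbol, which sum to 1000000 in each library. Salmon and the builds hg38 and mm10 are named in the submitters' processing notes. Neither the Salmon version nor the annotation is given in the sources used here. TPM depend on what else a library holds and keep no depth, so no counting interval is given. Columns were matched to samples by treatment and number, and the mouse columns name the line differently from the labels.

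The log2(TPM + 1) values of genes averaging 1 TPM or more were fitted separately per line in R 4.3.3 by limma 3.58.1, with a mean trend in eBayes, and p-values are two-sided. The fits were checked on simulated data for the mean size of known changes and, for large ones, their sign. Changes near the size of the larger ones seen here were among those simulated. The check did not require them to be called, and how many were called is not given here. Nothing is therefore read from it on the lack of calls. The members and gene lists were chosen with earlier results of these data known. Pathway genes are named where called or, failing that, where most abundant in their list, and others as marked. Cell type markers are named where most abundant in their list, where listed at 0 or as marked. In MOLM-13, deviations from group means of same-numbered libraries correlated at 0.522, 0.438 and 0.608 across genes. Each is above 0.1, the limit used here for treating the numbers as pairs. In ER-Hoxa9 they correlated at 0.206, also above that limit, but with 2 libraries a group the numbers were not taken as pairs. The main fit of each line had no replicate block. Human positions, overlapping genes and shared 31-base stretches are from GENCODE 29, and promoters from RefSeq. Mouse sequences were not used here. Python 3.11.15 with matplotlib 3.10.9 drew the figures. Alternatives were a pseudocount of 0.1, no filter or a mean of at least 5 TPM, median-of-ratios scaling, removal of 3 abundant microRNA entries, eBayes without trend, the replicate block and leaving out libraries.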

Additional observations from a re-analysis of the deposited data

Results flagged for a closer look

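TLR9 went opposite ways in the lines, which was not tested as a difference because the tables were normalized separately. In MOLM-13 its log2 difference, WM-1119 minus DMSO, was -0.35, and it was lower in 3 of 3 same-numbered pairs, as were 14.4% of tested genes. Without DMSO replicate 2 it was -0.14. In ER-Hoxa9 the log2 difference of Tlr9 was 0.495, and both WM-1119 libraries were above both DMSO libraries, all under 1 TPM. Neither difference was called (limma adjusted p = 1.0, and 0.394 without a filter on low values).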

How the results depend on the processing

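No gene of the 10 was called in a setting in which it was fitted. Tlr8, listed at 0, was fitted in 0 settings, TLR7, TLR8, Tlr1, Tlr7 and Tlr9 in 1, without a filter, and CD14 of MOLM-13 in 4. Of the 7 tested genes in MOLM-13 and the 6 in ER-Hoxa9, the direction changed for LY96 alone, to -0.040 without DMSO replicate 1 of MOLM-13 (0.62 at most, without DMSO replicate 2). With a mean of at least 5 TPM, 3 and 2 of them were left to test. Over all genes limma called 1 gene in MOLM-13 and 4 in ER-Hoxa9. In MOLM-13 this became 0 without a filter on low values, 2 without the trend, and 0 with the replicate block, whether alone, with median-of-ratios scaling or without any 1 of the pairs. Leaving out 1 library gave 0 to 6 calls. In ER-Hoxa9 it became 0 with a pseudocount of 0.1, 0 without a filter, 0 with a mean of at least 5 TPM, 16 without the trend, and 0 with the replicate block, alone or with median-of-ratios scaling. Leaving out 1 library gave 0 calls there each time. The cause was not tested. At an unadjusted p under 0.05, ER-Hoxa9 genes split into 1322 higher and 128 lower, and into 696 and 453 with median-of-ratios scaling; MOLM-13 genes split into 259 and 120, and into 275 and 204. With 2 pairs, ER-Hoxa9 numbers were not taken to pair samples, and a left-out library leaves a lone sample assumed to vary like the others. Depth is unknown, so levels under 1 TPM carry an unknown counting error.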
